A study of Mus musculus with 36 samples.

Results

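TBP summits present in both undeleted mouse embryonic stem (ES) cell lines were sorted by whether a summit was still called after deletion of Taf7 in one line and of Taf10 in the other. Of 2666 TBP summits in ethanol-treated (EtOH) RT7 cells, 1733 had a summit in EtOH-treated RT10 cells within 250 bp, and these are the base sites. Each base site was classed by whether that line's 4-hydroxytamoxifen (4-OHT) list held a summit within 250 bp of that line's own EtOH summit. The 573 sites at which the 2 lines differed are described here: 428 with no 4-OHT summit in RT7 only and 145 with none in RT10 only, out of 9335 summits in the 4 lists. The same 4 lists defined the classes, so class sizes are descriptions and carry no test.

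TBP is the subunit of the general transcription factor TFIID that binds DNA at the core promoter, and it also serves RNA polymerase III as part of TFIIIB. TBP-associated factors (TAFs) make up the rest of TFIID. TAF10 belongs both to TFIID and to the coactivator complex SAGA and takes part in TFIID assembly, whereas TAF7 is a TFIID subunit that pairs with TAF1. In ES cells TBP is found at the promoters of housekeeping, histone and pluripotency genes and at tRNA genes.

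RT7 cells carry the genotype R26CreERT2/+;Taf7flox/flox and RT10 cells R26CreERT2/+;Taf10flox/flox, so both lines, in both treatments, hold the tamoxifen-inducible Cre at the ubiquitously expressed Rosa26 locus. Cells received ethanol, or 4-OHT to delete the floxed gene, from day 1 to day 3, and TBP was mapped by CUT&RUN, in which an antibody directs micrococcal nuclease to the bound DNA. Each line and treatment had 2 TBP libraries and 1 IgG library of its own but a single summit list, so there is no replicate spread behind any value. Whether the 2 libraries were pooled, whether they came from separate cultures and whether a line is 1 clone are not given in the sources used here. No line without a floxed gene was used here, so effects of 4-OHT and Cre cannot be told apart from those of the deletion, nor the identity of the line from the gene it lacks. The loss of TAF7 or TAF10 was not checked, since the libraries for TAF7, TAF10 and TAF12 were not analysed here, and no list had a TBP summit within 500 bp of an end of Taf7, Taf10, Taf12 or Tbp. For 2 IgG libraries (RT7 EtOH and RT10 4-OHT) the treatment label contradicts the title, and the title was used. The lists held 2666 (RT7 EtOH), 1379 (RT7 4-OHT), 3102 (RT10 EtOH) and 2188 (RT10 4-OHT) summits, with scores from 1.30 to 934 and read depth unknown. A score is the authors' own −log10 q-value at the summit, and it ranks summits within 1 list; scores of different lists are set side by side below but not compared in size. As for the cell type, 11 base sites lay at genes of a 29-gene pluripotency list, 1 at a 22-gene list of lineage markers and 1 at a 15-gene list of fibroblast markers.

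The promoters of 8 discordant genes are shown because their summits were among the highest in the line that lost the call, with no 4-OHT summit of that line within 1000 bp and the summit within 250 bp of the start. Each sequence holds the 250 bases before the RefSeq start in GRCm38 (mm10), 5′ to 3′ on the gene's strand. Capitals mark 3 elements on either strand: TATAAA is the core of the TATA box, to which TBP itself binds. The second is CCAAT, the element bound by NF-Y. The last is GGGCGG, the GC box bound by SP1 and related factors. The first 4 lost the summit in RT7 only and the last 4 in RT10 only.
Txn1: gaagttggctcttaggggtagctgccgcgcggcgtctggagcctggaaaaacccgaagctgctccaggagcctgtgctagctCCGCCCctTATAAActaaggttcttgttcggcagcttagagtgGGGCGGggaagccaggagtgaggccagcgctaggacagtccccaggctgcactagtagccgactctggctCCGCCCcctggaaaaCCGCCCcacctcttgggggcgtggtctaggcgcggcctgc
Anp32e: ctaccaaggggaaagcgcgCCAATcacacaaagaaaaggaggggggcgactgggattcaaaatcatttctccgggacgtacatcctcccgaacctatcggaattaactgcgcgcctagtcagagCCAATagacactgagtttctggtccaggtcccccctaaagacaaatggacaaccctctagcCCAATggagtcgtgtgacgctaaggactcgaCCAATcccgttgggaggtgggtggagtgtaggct
Rplp2: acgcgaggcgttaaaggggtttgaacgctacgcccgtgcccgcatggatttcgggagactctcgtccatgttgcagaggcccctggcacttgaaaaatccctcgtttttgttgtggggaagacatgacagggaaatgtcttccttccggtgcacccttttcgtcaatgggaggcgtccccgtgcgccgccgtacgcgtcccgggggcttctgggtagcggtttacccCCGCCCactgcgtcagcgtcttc
Jup: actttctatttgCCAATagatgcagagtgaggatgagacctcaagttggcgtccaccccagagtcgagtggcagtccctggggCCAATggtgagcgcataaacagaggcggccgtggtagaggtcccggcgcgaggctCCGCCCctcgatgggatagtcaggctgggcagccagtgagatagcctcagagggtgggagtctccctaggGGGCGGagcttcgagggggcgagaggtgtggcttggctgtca
Mt1: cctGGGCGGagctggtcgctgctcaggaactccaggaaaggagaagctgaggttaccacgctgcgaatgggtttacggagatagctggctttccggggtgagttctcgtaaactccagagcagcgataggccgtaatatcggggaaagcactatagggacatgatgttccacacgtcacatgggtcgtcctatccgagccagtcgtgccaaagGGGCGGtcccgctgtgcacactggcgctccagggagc
Slbp: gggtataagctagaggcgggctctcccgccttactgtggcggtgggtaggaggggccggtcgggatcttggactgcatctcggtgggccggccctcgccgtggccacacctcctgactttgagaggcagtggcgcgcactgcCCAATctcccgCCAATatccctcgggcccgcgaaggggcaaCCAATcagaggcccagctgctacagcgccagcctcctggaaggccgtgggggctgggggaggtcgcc
Cyth2: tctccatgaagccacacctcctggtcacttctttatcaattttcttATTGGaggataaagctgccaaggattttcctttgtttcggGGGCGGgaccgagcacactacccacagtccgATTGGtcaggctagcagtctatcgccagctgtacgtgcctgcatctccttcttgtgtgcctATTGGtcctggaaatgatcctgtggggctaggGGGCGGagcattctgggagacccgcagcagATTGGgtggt
Gpx1: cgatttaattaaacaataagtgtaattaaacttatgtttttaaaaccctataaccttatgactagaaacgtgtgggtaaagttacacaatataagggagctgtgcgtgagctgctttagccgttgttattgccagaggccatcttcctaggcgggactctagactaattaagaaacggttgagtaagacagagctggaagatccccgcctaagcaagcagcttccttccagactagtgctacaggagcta
These windows lie at chr4:57956412-57956661 for Txn1 (minus strand), chr3:95929007-95929256 for Anp32e (plus strand), chr7:141447401-141447650 for Rplp2 (plus strand), chr11:100397791-100398040 for Jup (minus strand), chr8:94178839-94179088 for Mt1 (plus strand), chr5:33652575-33652824 for Slbp (minus strand), chr7:45814317-45814566 for Cyth2 (minus strand) and chr9:108338830-108339079 for Gpx1 (plus strand). Positions below count from the RefSeq start, with negative numbers upstream. Txn1 was the only one of the 8 with a TATAAA match, whose first base was at -160. Anp32e and Cyth2 each held 4 CCAAT matches, Slbp 3 and Jup 2, and the Gpx1 window held none of the 3 motifs. The RT7 EtOH summits lay upstream of the start at Txn1 (-92), Anp32e (-73), Rplp2 (-189), Jup (-181) and Cyth2 (-243), and downstream of it at Mt1 (26), Slbp (106) and Gpx1 (60). A match says only that the letters are in the window. At Mt1 the RefSeq gene coordinates begin at 94178883, inside the printed window. Its start is therefore uncertain, and so are the position and the lack of a TATAAA match there.

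TBP summits missing after 4-OHT in RT7 only outnumbered those missing in RT10 only. Of the 1733 base sites, 428 (24.7%, exact Clopper-Pearson 95% interval 22.7% to 26.8%) had no 4-OHT summit in RT7 while RT10 still had one. The reverse held for 145 (8.37%, 7.11% to 9.77%). Another 745 (43%) had a 4-OHT summit in both lines and 415 (23.9%) in neither. Counting the sites missing in both, RT7 had no 4-OHT summit at 843 base sites (48.6%) and RT10 at 560 (32.3%). Intervals here and below cover counting error only and say nothing of the spread between cultures.

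The size of this gap depended on the lengths of the 4-OHT lists. When the RT10 4-OHT list was shortened to its 1379 highest scores, the length of the RT7 list, 272 base sites (15.7%) were missing in RT7 only and 235 (13.6%) in RT10 only. The other classes then held 655 sites (37.8%, both summits called) and 571 (32.9%, neither called). In that step 156 of the 428 RT7-only sites became missing in both lines, because their RT10 4-OHT summit was among the lower-scoring ones, and 90 sites with both summits became missing in RT10 only. The shortened list ended within 98 summits tied at a score of 4.53. With every tied summit taken the classes held 275 and 233 sites, and with none taken 244 and 250, so that the order of the classes turned.

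**Figure D1:**
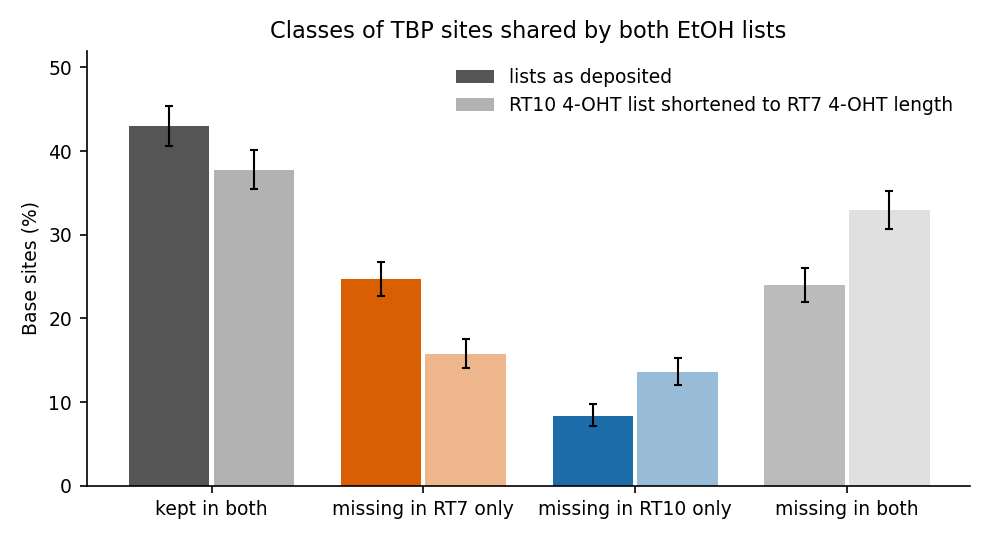
Share of the 1733 base sites in each class (vertical axis, percent; error bars are exact 95% intervals), with the lists as deposited and with the RT10 4-OHT list shortened to the RT7 4-OHT length. The 2 discordant classes go from 24.7% and 8.37% to 15.7% and 13.6%.

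A missing call was not always a bare region. Of the 428 RT7-only sites, 40 had an RT7 4-OHT summit 251 to 500 bp away and 16 one at 501 to 1000 bp, while 309 had none within 10000 bp (median distance 91949.5 bp). Near summits made up more of the smaller class: 42 of the 145 RT10-only sites had an RT10 4-OHT summit at 251 to 500 bp, 9 at 501 to 1000 bp, and 76 had none within 10000 bp (median 16858 bp). Sites at which the losing line had no 4-OHT summit within 1000 bp of either line's EtOH summit are called clear losses below. They numbered 370 (21.4% of base sites) in RT7 and 92 (5.31%) in RT10, and for 224 of the RT7 losses (12.9%) the RT10 4-OHT summit was also within the shortened list. Where the summit was still called, its median shift from the EtOH position was 59.5 bp for RT7-only sites in RT10 and 60 bp for RT10-only sites in RT7.

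Just inside the 250 bp limit, the RT7 4-OHT summit was 247 bp from the EtOH summit at Cabyr, 248 bp near Lmntd1 and 249 bp near Dido1. Just outside, it was 251 bp away near Usp48 and near Zfp958, and 252 bp near Serp2. In RT10 the nearest below the limit were Zfp747 (249 bp), n-TKctt26 and Tmsb10 (both 250 bp), and the nearest above were a site near Src (254 bp), n-TFgaa7 (255 bp) and Csrp2 (256 bp). In RT7, 34 base sites fell at 201 to 250 bp and 32 at 251 to 300 bp, against 59 and 32 in RT10.

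Among protein-coding genes with a clear loss in RT7 only, the highest RT7 EtOH scores were at metabolic, chromatin, ribosomal and junction genes. At Txn1, which encodes the redox protein thioredoxin, TBP scored 26.8 in RT7 EtOH, had no RT7 4-OHT summit, and scored 18.7 and 11.3 in RT10 EtOH and 4-OHT. At Anp32e, encoding a histone chaperone that removes H2A.Z, the scores were 20.6 in RT7 EtOH, 14.0 in RT10 EtOH and 8.24 in RT10 4-OHT. The nearest RT7 4-OHT summits were 114391 bp from the Txn1 site and 109532 bp from the Anp32e site. Both genes remained RT7-only with the shortened RT10 list.

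The shared promoter of Rplp2, a ribosomal stalk protein gene, and Pidd1, a p53-induced death domain protein gene, scored 19.4 in RT7 EtOH, 12.7 in RT10 EtOH and 3.68 in RT10 4-OHT. Jup, encoding the junction protein plakoglobin, scored 18.2, 10.2 and 4.37 in the same order. Gatad2a, a subunit of the NuRD chromatin complex, scored 17.3, 15.6 and 2.82. At all 3 sites the RT10 4-OHT call was low in its list and fell outside the shortened list, where they counted as missing in both lines. Rab11fip5 (15.5, 8.72 and 2.29), E2f3 (14.8, 8.23 and 2.88) and Manf (14.8, 19.9 and 3.32) did the same. Rab11fip5 encodes a Rab11 effector of endosome recycling, E2f3 a transcription factor of the cell cycle and Manf a protein of the endoplasmic reticulum stress response.

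4 further genes among the 12 highest remained RT7-only with the shortened list. Paip2b, encoding a poly(A)-binding protein partner that restrains translation, scored 15.9 in RT7 EtOH, 23.5 in RT10 EtOH and 6.78 in RT10 4-OHT. Vcl, encoding the adhesion protein vinculin, scored 15.7, 17.5 and 4.53, the last of these being the tied score at which the shortened list ended. Ier5l scored 14.8, 17.9 and 9.23. Med29, a Mediator subunit gene whose start faces that of Paf1, scored 14.8, 19.9 and 12.3, with the nearest RT7 4-OHT summit 13500 bp away. Across the 12 sites the RT10 4-OHT scores ran from 2.29 at Rab11fip5 to 12.3 at Med29.

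In the RT10-only class 39 of the 92 clear losses were at protein-coding genes, against 138 of 370 in the RT7-only class. Of all 1733 base sites, 709 had a protein-coding gene end within 500 bp, nearest or not, and both shares were near that. Of the 39 RT10-only losses at protein-coding genes, the highest RT10 EtOH score was at Mt1, encoding the metal-binding protein metallothionein. It scored 24.1 in RT7 EtOH, 23.5 in RT7 4-OHT and 28.8 in RT10 EtOH, with no RT10 4-OHT summit nearer than 142047 bp. Its RT7 EtOH summit lay 26 bp downstream of the start used for the printed window, but 232 bp from the gene start in the RefSeq gene coordinates. The site stood at the 91.8, 94.0 and 93.5 percentile of the 3 lists that held it. The base site at the other metallothionein gene, Mt2, was missing in both lines (12.6 in RT7 EtOH and 2.00 in RT10 EtOH). Its nearest RT7 4-OHT summit was 2131 bp away. Slbp, encoding the stem-loop protein that processes histone mRNA, scored 19.4 in RT7 EtOH, 9.15 in RT7 4-OHT and 24.8 in RT10 EtOH. Gpx1, encoding a glutathione peroxidase that reduces hydrogen peroxide, scored 7.45, 7.70 and 16.3, and Hsd17b12, an enzyme of fatty acid elongation, 11.3, 10.8 and 14.5. At these 4 RT10-only genes the RT7 4-OHT summit was high in its list, from the 66.9 percentile at Gpx1 to the 94.0 percentile at Mt1.

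At most of the other leading RT10-only genes the remaining RT7 4-OHT call was lower in its list. Impa2, an inositol monophosphatase gene, scored 5.10 in RT7 EtOH, 4.44 in RT7 4-OHT and 17.5 in RT10 EtOH. Cyth2, an exchange factor for ARF GTPases, scored 7.57, 3.59 and 17.5, and Hes1, the Notch-responsive repressor, 7.45, 2.30 and 14.5. The site between Gm21992 and Rbm14, an RNA-binding protein gene, scored 5.57, 3.10 and 12.2. Trappc6a, a trafficking complex gene, scored 2.86, 1.84 and 12.9, and Pacsin2, a membrane-bending protein gene, 3.01, 3.10 and 9.22. Fam43a (9.39, 4.84 and 12.3) and Bnip5 (2.19, 4.84 and 11.8) complete the 12. All 145 RT10-only sites stayed in the class when the RT10 4-OHT list was shortened, which can only remove RT10 summits.

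**Figure D2:**
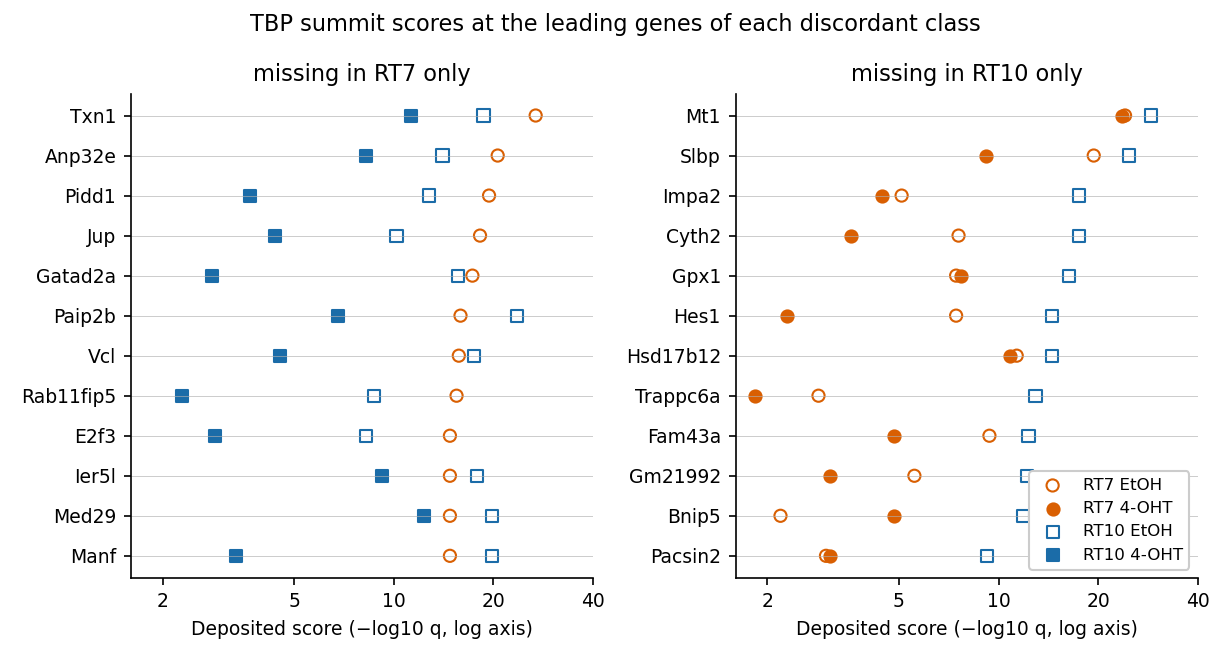
Authors' −log10 q-value at the summit (horizontal axis, logarithmic) for the 12 protein-coding genes of each discordant class with the highest EtOH score in the line that lost the call; each mark is 1 list, and the list without a summit has no mark. RT10 4-OHT scores run from 2.29 to 12.3 in the RT7-only genes, and RT7 4-OHT scores from 1.84 (Trappc6a) to 23.5 (Mt1) in the RT10-only genes.

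Several of the highest-scoring discordant sites were discordant at 250 bp but had a 4-OHT summit of the losing line within 1000 bp of an EtOH summit of either line. The largest was the mitochondrial genome's single base site, inside ND1 and beside TrnI: 286 in RT7 EtOH, 453 in RT10 EtOH and 325 in RT10 4-OHT, with an RT7 4-OHT summit 364 bp away. A site 13 bp upstream of a RefSeq start within Hook2 (49.3, 49.5 and 45.6) had an RT7 4-OHT summit at 297 bp, and Usp5, a deubiquitinase gene (45.5, 23.1 and 13.6), at 671 bp. In the RT10-only class, the site at Hes7 and the tRNA genes n-TRtct4 and n-TLtag3 scored 50.3 in RT7 EtOH, 56.8 in RT7 4-OHT and 61.7 in RT10 EtOH, with an RT10 4-OHT summit 1005 bp from the RT10 EtOH summit and 952 bp from the RT7 one. Neat1, the long noncoding RNA of paraspeckles, had one at 999 bp (38.8, 21.1 and 48.5) and the tRNA gene n-TKctt28 at 1122 bp from its own EtOH summit and 905 bp from the RT7 one (29.7, 37.4 and 48.1).

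Grouped by function, the discordant sites were spread over most of the 32 gene lists examined, and few lists held more than 5. For reference, 24.7% of base sites were RT7-only and 8.37% RT10-only. Members named below beyond 4 of a list, or with a 4-OHT summit of the losing line within 1000 bp, fall outside the naming rule and were chosen after their values were seen; the latter carry the distance from that line's own EtOH summit.

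In the transcription machinery, 2 of 3 Mediator sites were RT7-only (Med19 and Med29), as was 1 of 2 sites at SAGA and ATAC genes, Taf6l, a SAGA core subunit gene (10.4 in RT7 EtOH, 19.9 in RT10 EtOH and 11.3 in RT10 4-OHT). None of these was RT10-only, and all 3 stayed RT7-only with the shortened list. Gtf2a1, a TFIIA subunit gene, was RT7-only with a summit 308 bp away, and the other 3 of 4 sites at RNA polymerase II and general factor genes had both summits. Of 2 TFIID sites, 1 had both summits and 1 neither. These counts are too small to be set against the shares of all base sites.

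Among chromatin regulators, 6 of 24 sites were RT7-only and all 6 were clear: Anp32e, Gatad2a, Ep400 (5.57, 7.28 and 3.40 in RT7 EtOH, RT10 EtOH and RT10 4-OHT), Brd8 (4.68, 7.73 and 2.88), Kat7 (4.49, 9.16 and 4.97) and Kdm4a (1.51, 14.5 and 6.33). Ep400 and Brd8 encode subunits of the TIP60 acetyltransferase complex, Kat7 a histone acetyltransferase and Kdm4a a histone demethylase. Kdm3a, another demethylase gene, was the only RT10-only member (13.6 in RT7 EtOH, 2.30 in RT7 4-OHT and 1.78 in RT10 EtOH). The share of RT7-only sites in this list, 6 of 24, is close to that of all base sites. With the shortened list the counts were 3 and 3.

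Cell cycle genes had 5 of 13 sites RT7-only and 0 RT10-only: E2f3, Cdkn2d, Kif20a, Anapc13 and Cdk20, the last with an RT7 4-OHT summit 266 bp away. Kif20a encodes a mitotic kinesin and shares its site with Brd8. Cdkn2d encodes a CDK inhibitor (6.49, 4.06 and 5.41). With the shortened list the counts were 2 and 2. DNA replication and repair genes had 2 RT7-only (Parp2 and Orc6) and 2 RT10-only sites (Slbp and Mcm7) of 11. Orc6, an origin recognition subunit gene, scored 4.99, 8.67 and 6.33. Mcm7, a subunit gene of the replicative helicase, scored 7.45 in RT7 EtOH, 2.30 in RT7 4-OHT and 3.33 in RT10 EtOH.

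Genes of protein synthesis fell on both sides. Of 26 sites at cytoplasmic ribosomal protein genes, 13 had both summits, 5 were RT7-only (Rplp2, Rpl41, Rpl13a, Rpl39 and Rps28) and 3 RT10-only (Rpl7, Rps14 and Rps19, the last with a summit 286 bp away). The RT7-only Rpl41 site lay 122 bp upstream of the Zc3h10 start, near the other end of Rpl41. A separate site 96 bp upstream of the Rpl41 start had both summits (24.3 in RT7 EtOH, 12.3 in RT7 4-OHT, 23.2 in RT10 EtOH and 9.33 in RT10 4-OHT). Rps28 shares its site with Ndufa7 and had the highest remaining call of the 5 in RT10 4-OHT, 20.3, after 2.23 in RT7 EtOH and 1.98 in RT10 EtOH. Rpl7 scored 5.57 in RT7 EtOH, 3.10 in RT7 4-OHT and 7.73 in RT10 EtOH, and Rps14 5.57, 4.84 and 5.87. With the shortened list 2 ribosomal protein sites were RT7-only and 4 RT10-only. Of 12 sites at translation factor genes, Etf1, Eif4g2 and Eif3b (290 bp) were RT7-only, and Eef1g and Eif4a2 (303 bp) RT10-only.

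At splicing factor genes 3 of 14 sites were RT10-only and 0 RT7-only. The 3 were Rbm14, Hnrnpa3 (4.68, 3.10 and 4.06 in RT7 EtOH, RT7 4-OHT and RT10 EtOH) and Srsf7 (273 bp), and 6 had both summits. Ubiquitin and proteasome genes had 3 RT10-only sites of 13, at Ube2d3, Psma3 (532 bp) and Rnf10 (308 bp), and 1 RT7-only, Usp5. Only 1 of these 4, Ube2d3, a ubiquitin-conjugating enzyme gene, was clear. Zinc finger genes had 3 RT7-only sites (Zfp747, Zfp13 and Zfp260) and 1 RT10-only (Zfp687) of 23. Zfp13 scored 4.68 in RT7 EtOH, 16.3 in RT10 EtOH and 6.85 in RT10 4-OHT.

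Cytoskeleton, vesicle, respiration and solute carrier genes held RT7-only sites. With 8.37% of all base sites RT10-only, lists of this size would hold few such sites, so their absence from a list is not a result about it. The tubulin genes Tuba1a (13.7, 19.6 and 11.3 in RT7 EtOH, RT10 EtOH and RT10 4-OHT) and Tuba1b (4.31, 12.3 and 8.24) and the myosin light chain gene Myl12a (7.45, 2.78 and 7.27) were RT7-only among 9 cytoskeleton sites. The same 3 were RT7-only with the shortened list. Vesicle and Rab genes had 7 RT7-only sites of 26, Rab11fip5, Sec11c, Rab4b, Rab5b, Vps35, Rab11b and Rab11fip3, and 2 RT10-only, Rab1a and Arl2 (260 bp). The Sec11c site, at a signal peptidase gene, had one of the higher remaining calls (12.1, 10.8 and 20.3). The vesicle share, 7 of 26, is near the 24.7% of all base sites, and with the shortened list the counts were 3 and 4. Respiration genes had 4 RT7-only sites of 11 (Ndufa7, Uqcrh, Ndufaf3 and Timm17b) and solute carriers 3 of 9 (Slc1a5, Slc25a4 and Slc25a42), and 2 in each with the shortened list. All 4 respiration sites also lay at an end of another gene: Rps28, Lrrc41, Dalrd3 and Pqbp1, in that order. At the Rps28, Lrrc41 and Pqbp1 sites the nearest coding start was that of the other gene. Slc1a5, a glutamine transporter gene, scored 13.7, 8.09 and 6.33.

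Stress, signalling and pluripotency genes held discordant sites of both classes, in small numbers. Of 11 pluripotency sites, Tbx3 (11.5, 18.7 and 7.27 in RT7 EtOH, RT10 EtOH and RT10 4-OHT) and Fgf4 (3.83, 6.67 and 10.7) were RT7-only. Dppa3 was RT10-only (8.43 in RT7 EtOH, 3.59 in RT7 4-OHT and 8.72 in RT10 EtOH). Tbx3 encodes a T-box factor of the ES cell network, Fgf4 a growth factor that drives exit from it, and Dppa3 a protector of maternal DNA methylation. Of 13 immediate early sites, 7 had both summits, Ccn2, Dusp1 (257 bp) and Junb (1080 bp from its own and 993 bp from the RT10 EtOH summit) were RT7-only, and Jun and Ier5 (271 bp) RT10-only. Heat shock and chaperonin genes had 1 RT7-only site (Cct3) and 2 RT10-only (Hspa2 at 271 bp and Cct7 at 280 bp) of 17. The promoter of Hmgcs1, a cholesterol synthesis enzyme gene, held 2 base sites, 1 of each discordant class, and neither was clear.

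Of 23 sites at replication-dependent histone genes, 20 had both summits, against 43% of all base sites and 85.0% of the base sites with the highest EtOH ranks described below. None was RT7-only, and the 2 RT10-only ones, H3c8 and H4f16, a share near the 8.37% of all base sites, had RT10 4-OHT summits 321 and 363 bp away. Of 9 sites at small RNA genes, 8 had both summits and 0 were discordant. These genes were Rnu1a1, Rnu5g, Rnu12 and the U3 small nucleolar RNA genes Rnu3a and Rnu3b1 to Rnu3b4. H2bc4 had the highest RT7 EtOH score of the protein-coding sites with both summits (167 in RT7 EtOH, 87.5 in RT7 4-OHT, 135 in RT10 EtOH and 148 in RT10 4-OHT). For comparison, sites missing in both lines included Zfp143 (12.6 in RT7 EtOH and 19.9 in RT10 EtOH), Mdc1 (15.9 and 14.0) and Asf1b (15.3 and 12.1).

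By position, RT7-only sites were more often away from annotated gene ends than the base sites as a whole. Of the 428, 238 (55.6%, 50.8% to 60.4%) had no gene end within 500 bp, against 818 of 1733 (47.2%) of all base sites and 62 of 145 (42.8%, 34.6% to 51.2%) of RT10-only sites. Within genes lay 116 of the 238 and 27 of the 62, and the others were intergenic. Of sites missing in both lines, 51.8% (46.9% to 56.7%) were away from gene ends, an interval that overlaps that of RT7-only sites. Of sites with both summits, 40.7% were. Gene ends here are the outer ends of a gene. A site at a start within a gene, as at Hook2, therefore counted as away from gene ends. Ends of protein-coding genes made up 140 RT7-only sites (32.7%, 28.3% to 37.4%) and 56 RT10-only sites (38.6%, 30.7% to 47.1%), against 37.2% of base sites. The intervals of the 2 discordant classes overlap both for sites away from gene ends and for coding ends. Read the other way, 29.1% of sites away from gene ends were RT7-only and 7.58% RT10-only, which became 19.1% and 13.2% with the shortened list. Of the 645 sites at coding ends, 21.7% were RT7-only and 8.68% RT10-only, and with the shortened list the order turned to 11.9% and 14.4%.

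The highest clear losses away from coding ends in RT7 were at the noncoding gene 1700096K18Rik (25.6 in RT7 EtOH, 26.1 in RT10 EtOH and 10.2 in RT10 4-OHT), inside Nmnat2 (24.3, 36.7 and 19.6) and at an intergenic site nearest to Spry2 (21.3, 14.6 and 13.1). Their RT10 4-OHT summits stood at the 72.4, 88.3 and 80.6 percentile of that list, all within the shortened list. In RT10 they were 2 tRNA sites on chromosome 13, n-TMcat6 with n-TGgcc6 (29.7 in RT7 EtOH, 29.7 in RT7 4-OHT and 57.1 in RT10 EtOH) and n-TRtct3 (12.2, 13.0 and 26.1), and a site near Pax1 (4.83, 4.84 and 19.9). The nearest RT10 4-OHT summits were 1463 bp from n-TMcat6 and 1726 bp from n-TRtct3, measured from the RT10 EtOH summit.

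Genes of RNA polymerase III, which makes tRNAs and other small RNAs, had both summits more often than the base sites as a whole. Of 116 such base sites 81 (69.8%, 60.6% to 78.0%) had both, against 43% of all base sites, 19 (16.4%) were RT7-only and 8 (6.90%) RT10-only, with 16 and 8 in the shortened list. Among all base sites the share with both rose with EtOH rank, to 85.0% in the highest part described below. Sites of these genes were not compared with others of equal rank. Only n-TMcat6 and n-TRtct3 among the 8 RT10-only sites were clear. RT7-only sites included Rn7s2, chosen after its values were seen, a gene of the RNA of the signal recognition particle (7.45 in RT7 EtOH, 5.00 in RT10 EtOH and 11.2 in RT10 4-OHT), and the divergent promoter of Rpph1, the RNase P RNA gene, and Parp2 (5.57, 6.40 and 6.85). Near-identical tRNA copies can share reads, so calls at individual tRNA genes are uncertain.

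By their medians, discordant sites ranked between the sites with both summits and those missing in both. Ranks are given as percentiles of each list, with 100 the highest score. RT7-only sites had a median rank of 49.1 in RT7 EtOH and 62.8 in RT10 EtOH, and RT10-only sites 60.3 and 62.9. Sites with both summits stood higher (80.9 and 84.3) and sites missing in both lower (38.7 and 43.1). All base sites had medians of 60.3 and 67.1. The rank was higher in RT10 than in RT7 at 270 of the 428 RT7-only sites (63.1%), at 84 of the 145 RT10-only sites (57.9%) and at 1026 of all 1733 (59.2%). Both discordant shares were near that of the base sites. The 4-OHT calls that remained ranked at a median of 46.8 in RT10 for RT7-only sites and 41.7 in RT7 for RT10-only sites, against 75.8 and 64.0 for sites with both summits.

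**Figure D3:**
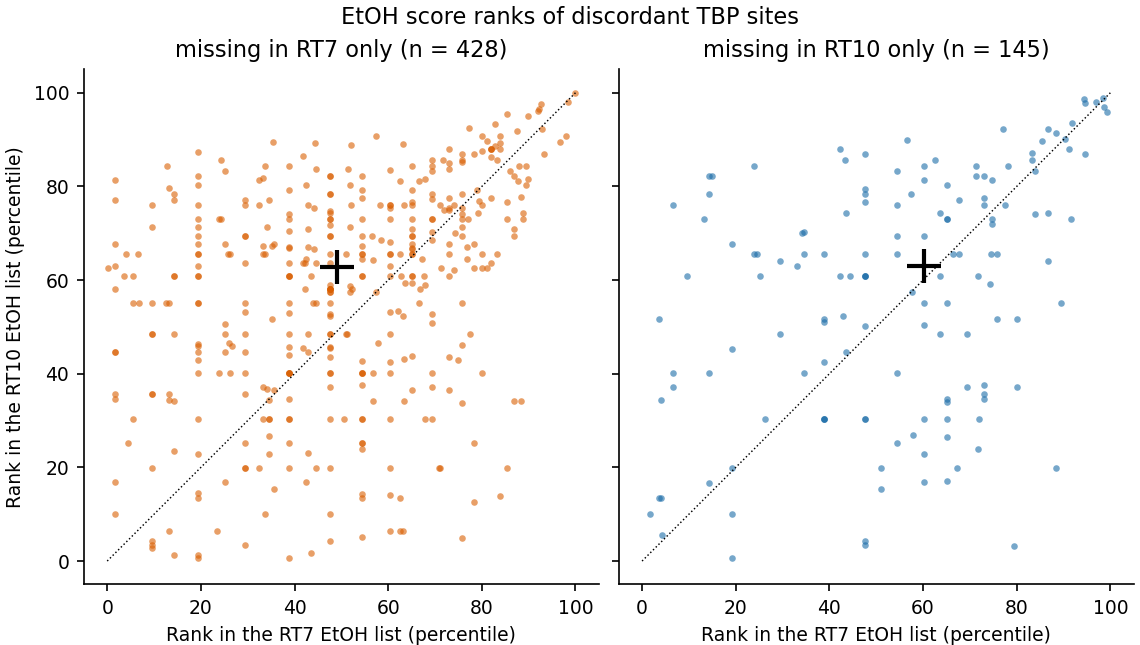
Rank of each discordant site in the RT7 EtOH list (horizontal axis, percentile) and in the RT10 EtOH list (vertical axis, percentile), with missing-in-RT7-only sites on the left and missing-in-RT10-only sites on the right; points are sites, crosses class medians and the dotted line equal ranks. The median of the RT7-only sites (49.1 and 62.8) is above the line and that of the RT10-only sites (60.3 and 62.9) is close to it.

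When base sites were split into 4 equal parts by their mean EtOH rank, discordance was lowest in the top part. There 85.0% of sites had both summits, 8.78% were RT7-only and 4.39% RT10-only. In the lower 3 parts, from the lowest up, RT7-only sites made up 27.6%, 34.2% and 28.2%, and RT10-only sites 7.83%, 11.5% and 9.70%. Sites with both summits rose from 12.4% in the lowest part through 24.0% and 50.6%. With the shortened list the 2 discordant shares were closer in every part, at 19.6% and 17.8% in the next to lowest part and 7.62% and 6.47% in the top part.

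**Figure D4:**
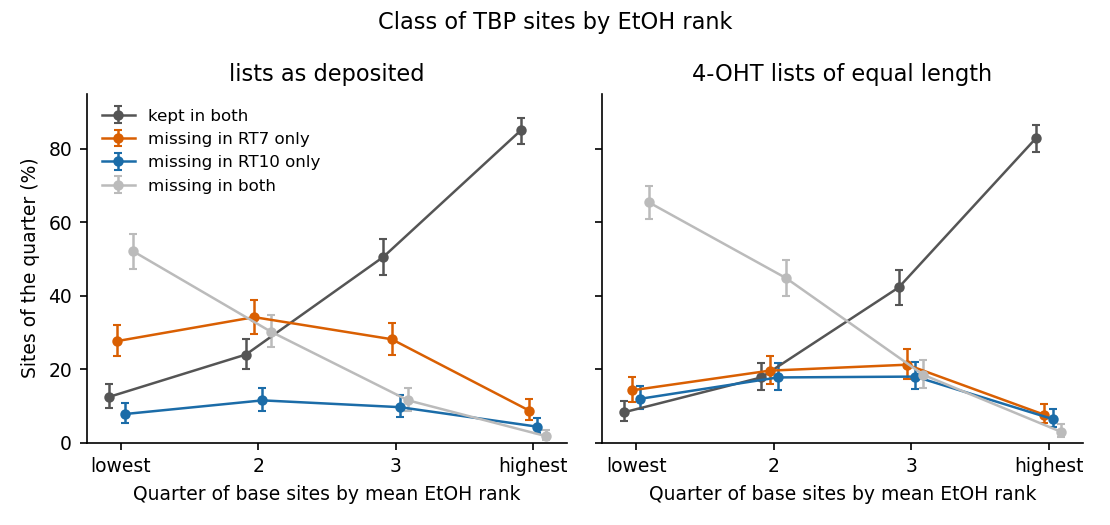
Share of base sites (vertical axis, percent) in each of the 4 classes, in 4 equal parts ordered by mean EtOH rank (horizontal axis, lowest to highest), with the lists as deposited and with the RT10 4-OHT list shortened; error bars are exact 95% intervals. Both discordant classes are smallest in the highest part, at 8.78% and 4.39% with the lists as deposited.

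At promoters the 2 classes shared the same position relative to the start. A RefSeq protein-coding start lay within 500 bp of 154 of 414 RT7-only sites (37.2%) and 58 of 141 RT10-only sites (41.1%), against 674 of 1689 base sites (39.9%); the other sites of each class lay on chromosomes for which no starts were used. The median summit was 122 bp upstream in RT7-only sites and 118 bp upstream in RT10-only sites, against 118 bp in all.

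The TATA box core was more frequent in promoters with both summits than in either discordant class. Windows from 250 bases before to 50 after the start were searched on both strands for 11 motifs: the 3 elements above, CCGGAAG for ETS factors, the cyclic AMP response element TGACGTCA, the E-box CACGTG, the YY1 element AAGATGGC, the metal response element TGCGCNC and, by name, the longer NRF1, ZNF143 and KAISO motifs. TATAAA was in 57 of 292 promoters with both summits (19.5%, 15.1% to 24.5%), 15 of 154 RT7-only (9.74%, 5.55% to 15.6%), 5 of 58 RT10-only (8.62%, 2.86% to 19.0%) and 16 of 168 missing in both (9.52%). It was in 13.8% of 669 base promoters and 12.6% of 21238 protein-coding promoters. The 2 discordant classes lay within each other's intervals, and the interval of promoters with both summits overlapped them at its lower end. Above the median of the mean EtOH rank the shares were 20.4% of 230 promoters with both summits, 12.5% of 56 RT7-only and 4.35% of 23 RT10-only; below it they were 16.1% of 62, 8.16% of 98 and 11.4% of 35.

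CACGTG, the sequence that basic helix-loop-helix factors bind, was in 20.1% (14.1% to 27.3%) of RT7-only and 10.3% (3.89% to 21.2%) of RT10-only promoters, against 16.9% of base promoters and 7.84% of all promoters. GGGCGG was in 72.1% of RT7-only and 82.8% (70.6% to 91.4%) of RT10-only promoters, against 72.8% of base and 46.2% of all promoters. TGCGCNC, the core of the metal response element bound by MTF1, was in 27.9% and 39.7% (27.0% to 53.4%), against 26.2% of base and 19.6% of all promoters. CCAAT was in 54.5% and 55.2%, against 56.4% of base and 38.2% of all promoters. In promoters with both summits and in those missing in both, in that order, CACGTG was in 19.5% and 11.3%, and TGCGCNC in 21.6% and 28.0%. GGGCGG was in 71.9% and 70.8% of them, and CCAAT in 57.5% and 57.1%. For these 4 motifs the intervals of the 2 discordant classes overlapped.

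**Figure D5:**
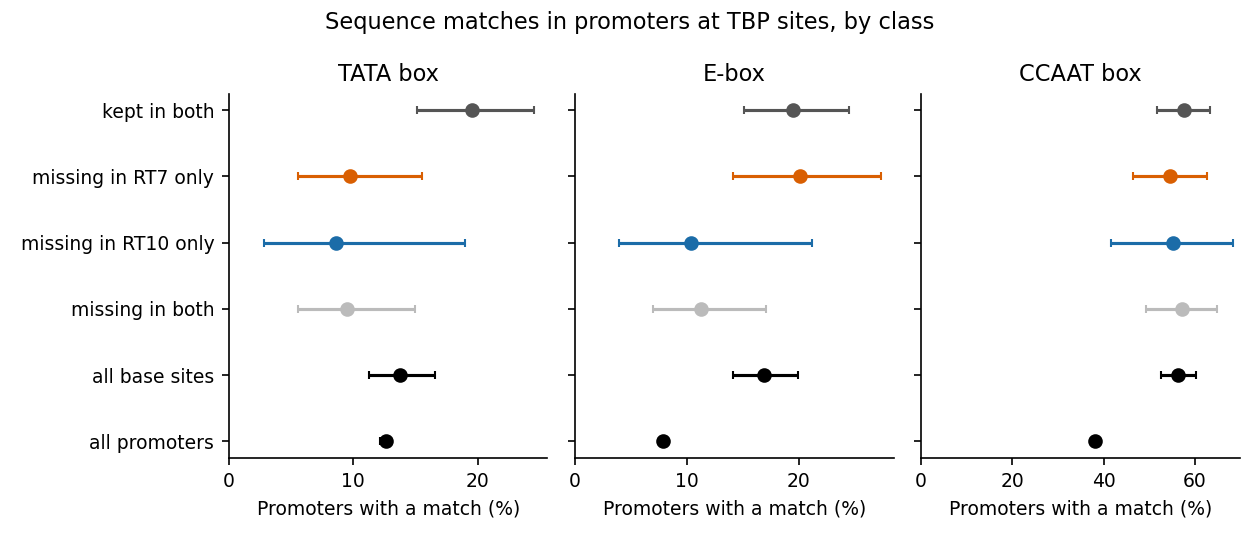
Share of protein-coding promoters with the TATA box core, the E-box or CCAAT on either strand (horizontal axes, percent, each with its own range) in each class, all base sites and all 21238 promoters, with exact 95% intervals. TATAAA is highest in promoters with both summits (19.5%) and lower in the RT7-only (9.74%) and RT10-only (8.62%) classes.

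Compared directly, without reference to EtOH, 940 of 1379 RT7 4-OHT summits (68.2%, 65.6% to 70.6%) had an RT10 4-OHT summit within 250 bp, and 940 of 2188 RT10 4-OHT summits (43.0%, 40.9% to 45.1%) had an RT7 one. At equal length the shares were 57.9% and 57.7%. In the parallel ethanol-treated cells 65.0% of RT7 and 55.7% of RT10 EtOH summits were shared, so the lines also differed by their calls in ethanol. Of the 439 4-OHT summits of RT7 alone, 144 were at places present in both EtOH lists, 71 in the RT7 EtOH list only, 80 in the RT10 EtOH list only and 144 in neither. Of the 1248 of RT10 alone, the counts were 420, 247 (RT10 EtOH only), 136 (RT7 EtOH only) and 445.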

How the data were processed

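TBP CUT&RUN summits of 4 groups (RT7 and RT10, EtOH and 4-OHT), 1 list each, were analysed out of 36 libraries in 20 groups. The authors deposited each list as 1-base positions with a −log10 q-value at the summit. Per the submitters' processing notes, cutadapt 4.0, Bowtie2 2.4.4, SAMtools 1.15.1, bedtools, deepTools and MACS2 2.2.7.1 were used with the mm10 build. The score threshold, any pooling of replicates and any use of the yeast spike-in DNA that the protocol added are not given in the sources used here. Absence of a summit is absence of a call, not of TBP, and the number of calls depends on depth and on the IgG library, both of which can differ between lists.

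Summits were matched at 250 bp, and a gene end within 500 bp gave a site its gene, from 49980 genes of the RefSeq GRCm38 table. That table gives no strand, so positions relative to a start came from 21238 RefSeq promoter windows of the same build, which do not cover every gene. Shares have exact Clopper-Pearson 95% intervals. No test was run, since each group is 1 list. Python 3.11.15, pandas 2.3.3, NumPy 2.4.6, SciPy 1.17.1 and matplotlib 3.10.9 were used, and class assignment was tested on simulated summits. Genes were named by rule: in each discordant class, the 12 protein-coding genes and the 3 other sites with the highest EtOH score in the losing line and no 4-OHT summit within 1000 bp, up to 4 such members of each of 32 gene lists, the 3 highest sites that were discordant at 250 bp but not at 1000 bp, the 4 highest coding sites of the concordant classes, and the 3 sites on each side of the limit. The members, rule and gene lists were chosen with earlier results of these data known. Alternatives changed the matching distance, list lengths, minimum score, gene end distance and motif window.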

Additional observations from a re-analysis of the deposited data

How the results depend on the processing

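In order, the shares given here are for sites with both summits, missing in RT7 only, missing in RT10 only and missing in both, where they moved beyond their 95% interval. With a matching distance of 100 bp, both summits fell to 29.6%, RT10-only rose to 11.8% and neither to 33.9%. At 500 bp these were 47.8%, 7.07% and 21.1%, and at 1000 bp 50.9%, 6.49% and 19.7%. With scores of at least 10 in both EtOH lists the 4 shares were 79.5%, 11.9%, 5.46% and 3.20%, with 4-OHT lists of equal length 37.8%, 15.7%, 13.6% and 32.9%, and with all 4 lists of equal length 61.7%, 14.4%, 12.2% and 11.6%. Among sites with no other EtOH summit within 5 kb, both summits made up 40.1%, RT10-only 7.06% and neither 27.0%. RT7-only exceeded RT10-only under each of these settings; the exception was the equal-length list without its tied summits (244 and 250 sites).

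Coding ends made up 26.4% of RT7-only sites with a gene end distance of 250 bp, and 40.2% of RT7-only and 53.1% of RT10-only sites at 2000 bp. RNA polymerase III genes made up 2.57% of RT7-only sites with gene ends at 250 bp and 2.64% with matching at 1000 bp. The share of RT7 4-OHT summits matched in RT10 was 47.8%, 76.0% and 79.2% at 100, 500 and 1000 bp and 57.9% at equal length, and the reverse 30.1%, 47.9%, 50.6% and 57.7%. TATAAA was in 3.25% of RT7-only promoters within the last 50 bases before the start. In the same window it was in 9.25% of promoters with both summits, 4.76% missing in both and 3.91% of all promoters. An added alternative, chosen after seeing the data, took any coding start within 500 bp. The other 36 recomputed shares moved by less than their intervals. Of 50 named RT7-only sites 28 stayed in the class at equal 4-OHT length. The cause of these moves was not tested, beyond the settings' own construction. Depth is unknown and limits every missing call. No paired analysis was possible because each group has a single summit list, with no replicate numbers.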
